A study of Mus musculus with 8 samples.

Results

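The eicosanoid and oxylipin enzymes described here were 10 genes: the lipoxygenases Alox5 and Alox15, the 5-lipoxygenase activating protein Alox5ap, the cyclooxygenases Ptgs1 and Ptgs2, the prostaglandin D2 synthases Ptgds and Hpgds, the leukotriene A4 hydrolase Lta4h, and the epoxide hydrolases Ephx1 and Ephx2. They were chosen by name, with earlier results of these data known, and all 10 were found among the 56884 genes of the deposited count tables. The measurement was bulk poly(A) RNA sequencing of liver from 8 female C57BL/6J mice, with 1 library per mouse, and it compared the diet-induced obese group (DIO, n = 3) with the DHA-supplemented obese group (DIO + DHA, n = 5). DHA is docosahexaenoic acid, a long-chain n-3 polyunsaturated fatty acid of fish oil.

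All 8 mice shared the same obesity model. From 2 months of age they received 4 months of a high-fat diet that supplied 45% of its energy as lipids, 35% as carbohydrates and 20% as proteins. The DIO mice then stayed on that diet until 18 months of age. In the DIO + DHA mice a fish oil concentrate took the place of 15% of the dietary lipids by weight until the same age. The concentrate held 683.4 mg of DHA, 46.7 mg of EPA (eicosapentaenoic acid) and 838.9 mg of n-3 fatty acids in all per gram. Per the study's methods, the DIO diet was given the same mixture of tocopherols that the concentrate contained, and the mice were fasted overnight before the liver was taken. No lean or unsupplemented low-fat control is part of the comparison, and all 8 libraries carry the same batch label.

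Total counts ranged from 1723800 in DIO replicate 1 to 5690347, around a median of 4495644, and levels are given in CPM, counts scaled by the TMM-normalized size of each library. Hepatocyte markers were abundant in every library, with a summed level of the 12 listed genes of 115000 to 122000 CPM in DIO and 117000 to 131000 CPM in DIO + DHA. Markers of other tissues also differed between the groups, and the source of their RNA was not tested. All 12 skeletal muscle markers rose in DIO + DHA, with a summed level of 31.9 to 37.1 CPM in DIO and 1260 to 1350 CPM in DIO + DHA. For stratified squamous epithelium, 5 of the 6 tested markers rose and none fell, and the summed level was 6.39 to 9.56 CPM against 84.8 to 97.0 CPM. Of these genes, 4 of skeletal muscle and 4 of squamous epithelium passed the filter on low counts through the DIO + DHA group alone. The 14 macrophage and Kupffer cell markers, of which 13 were tested, moved mostly the other way, with 10 lower and 1 higher and a summed level of 876 to 978 CPM against 507 to 540 CPM. In bulk libraries, fewer cells of a type and less RNA per cell cannot be told apart.

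Eicosanoids and related oxylipins are signalling lipids made by oxidation of polyunsaturated fatty acids that phospholipases release from membranes. Cyclooxygenases start the prostaglandin and thromboxane branch, lipoxygenases start the leukotriene and hydroxy fatty acid branch, and cytochrome P450 enzymes form epoxides and omega-hydroxy acids. Arachidonic acid, EPA and DHA compete for many of these enzymes. Soluble epoxide hydrolase, encoded by Ephx2, turns fatty acid epoxides into diols. In liver, hepatocytes carry most of the P450 and epoxide hydrolase branch, while the cyclooxygenase and leukotriene enzymes are better known from Kupffer cells, other leukocytes, platelets and mast cells.

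The cyclooxygenase pair and Ptgds are shown here by the 120 bases before their start site, because Ptgs1 was counted in every library, Ptgs2 in none, and Ptgds had the largest fitted difference of the members. Sequences are from RefSeq on the build GRCm38.p6, whose promoter table held 7 of the 10 members, and are written 5′ to 3′ on the gene's strand. Capitals mark the letters TGACTCA, the usual AP-1 sequence. Ptgs1 lies at chr2:36230306-36230425 on the plus strand, Ptgs2 at chr1:150099911-150100030 on the plus strand, and Ptgds at chr2:25469750-25469869 on the minus strand.
Ptgs1: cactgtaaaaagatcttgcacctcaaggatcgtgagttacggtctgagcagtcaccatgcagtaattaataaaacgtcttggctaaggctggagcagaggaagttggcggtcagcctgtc
Ptgs2: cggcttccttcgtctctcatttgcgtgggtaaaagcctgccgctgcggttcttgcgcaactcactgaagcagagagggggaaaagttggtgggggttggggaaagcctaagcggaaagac
Ptgds: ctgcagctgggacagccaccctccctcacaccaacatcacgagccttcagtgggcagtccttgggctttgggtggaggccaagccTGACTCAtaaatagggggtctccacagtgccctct

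The motifs searched on both strands were the TATA box TATAAA, the CCAAT box, the GC box GGGCGG, the E-box CACGTG, the AP-1 letters TGACTCA and the nuclear receptor half-site AGGTCA. In the 300 bases from 250 before to 50 after the start, the Ptgds window held TGACTCA at positions -35 to -29. These letters occur in 5.2% of the 32851 promoters of the same length in the table. The Ptgs1 window held none of the 6 motifs. The Ptgs2 window held GGGCGG at -170 to -165 and CACGTG at 16 to 21, outside the bases shown, and these occur in 35.7% and 7.15% of all promoters. A match describes letters in a window and is not a measured binding site.

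Ephx2 and Ptgds rose in DIO + DHA and Ptgs1 fell. The other 4 tested members, Hpgds, Alox5ap, Lta4h and Ephx1, did not pass the test, and Alox5, Alox15 and Ptgs2 had 0 counts in all 8 libraries. A gene was called when the adjusted p of edgeR's quasi-likelihood F test over all 12412 tested genes was under 0.05. That test weighs a difference against counting error and the spread between these mice, with a spread estimate that borrows from other genes. Over all tested genes, 15.2% were called, 7.89% higher and 7.28% lower in DIO + DHA. Among the 7 tested members, 3 were called (42.9%), 2 higher and 1 lower. Since the members were chosen with earlier results of these data known, that share only describes them and was not tested. Hpgds passed the filter on low counts through the DIO group alone. The groups did not overlap in 3 members, the same 3 that were called, where 18.4% of all tested genes had groups that did not overlap. The median difference of the 7 tested members was 0.10 on the log2 scale, against 0.001 for all tested genes.

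**Figure D1:**
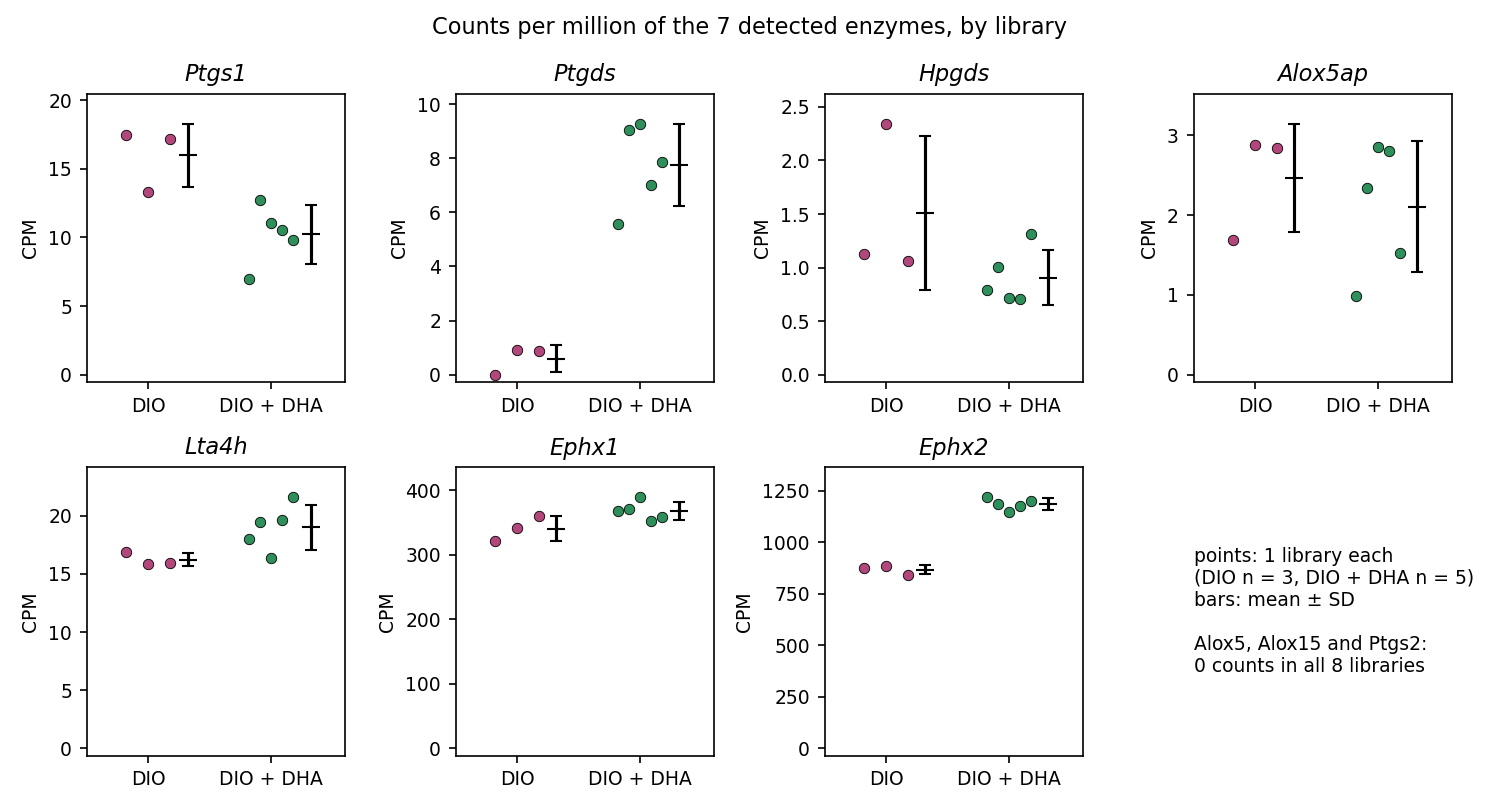
CPM of the 7 detected members, with 1 point per library (DIO n = 3, DIO + DHA n = 5) and bars for mean ± SD, each panel on its own linear axis from 0. Ephx2 and Ptgds sit higher in all 5 DIO + DHA libraries than in any DIO library, Ptgs1 sits lower in all 5, and the groups overlap in the other 4 panels.

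Among the cyclooxygenases, Ptgs1 (chr2:36120438-36142284, plus strand, GRCm39) encodes COX-1, the constitutive form that makes prostaglandin H2 in most tissues and in platelets. It stood at 17.4, 13.3 and 17.2 CPM in DIO replicates 1, 4 and 5. In DIO + DHA replicates 1, 2, 4, 5 and 6 it stood at 6.94, 12.7, 11.1, 10.5 and 9.83 CPM. The highest DIO + DHA library was just under the lowest DIO library, so the groups were separate by a narrow margin. Ptgs1 fell, with means of 16 ± 2.30 CPM (SD, n = 3) in DIO and 10.2 ± 2.12 CPM (SD, n = 5) in DIO + DHA and a fitted log2 difference of -0.66 (SE 0.18, 95% interval -1.02 to -0.29, edgeR adjusted p = 0.00694). These values rest on 31 to 97 reads per library, and counting alone would give a coefficient of variation of 14.0% in DIO and 16.5% in DIO + DHA, against 14.4% and 20.8% observed. Such counting values treat reads as independent molecules, and PCR copies would make them too small. The call depended on 1 library: without DIO replicate 5 the difference was -0.54 with an adjusted p of 0.11.

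Several marker lists of cell types known to express Ptgs1 held genes that were lower. Of the macrophage and Kupffer cell markers 10 of 13 tested fell, among them Clec4f, a defining Kupffer cell lectin, at 126.9 ± 20.1 CPM in DIO and 77.2 ± 8.83 CPM in DIO + DHA. Marco, on the same list, rose from 19.65 ± 1.51 CPM in DIO to 30.4 ± 2.22 CPM in DIO + DHA, and Timd4 and Cd163 were not called. The platelet and megakaryocyte markers summed to 32.1 to 45.2 CPM against 18.4 to 27.1 CPM, with 1 of the 4 tested genes lower (Clec1b) and none higher, and with Tubb1 at 0. Clec1b, which liver sinusoidal endothelial cells also express, made up most of that sum, and without it the platelet list overlapped, at 5.63 to 11.4 CPM against 5.46 to 7.74 CPM. The mast cell and basophil markers summed to 7.45 to 9.001 CPM against 2.62 to 5.36 CPM, with both tested genes lower (Kit and Hdc) and with Tpsb2, Tpsab1 and Ms4a2 at 0. Kit passed the filter through the DIO group alone, and without Hdc the mast cell list overlapped, at 2.25 to 3.25 CPM against 0.357 to 2.38 CPM. The other counted genes of the mast cell list fell below the filter, with few reads. Cma1 had 1 count in DIO and 6 in DIO + DHA, and Mcpt4 had 0 and 2. Cpa3 and Fcer1a each had 0 and 1, and Mcpt8 had 1 and 0. The endothelial markers summed to 211 to 230 CPM against 157 to 184 CPM, with 2 of 10 lower (Clec4g and Lyve1) and 8 not called. The part of these cells in the Ptgs1 difference was not tested. About 3.81% of the exon bases of Ptgs1 overlap an antisense gene, Gm43621, and counting was not strand-specific and left out reads that 2 genes share.

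Ptgs2 (chr1:149975782-149983978, plus strand), which encodes the inducible cyclooxygenase COX-2, had 0 counts in each of the 8 libraries. A count of 0 allows up to 3 counts, which corresponds to 1.69, 0.541 and 0.532 CPM in DIO replicates 1, 4 and 5 and to 0.595 to 1.07 CPM in the DIO + DHA libraries. Over all 8 libraries together the limit was 0.0919 CPM. The same counts and limits apply to Alox5 (chr6:116387038-116438139, minus strand), the enzyme that opens leukotriene synthesis in myeloid cells, and to Alox15 (chr11:70234978-70242857, minus strand), a lipoxygenase of resident macrophages and eosinophils that also acts on DHA. No difference between the diets was detectable for these 3 enzymes at this depth, and these limits cover counting error only. Of the eosinophil markers none was tested, and the defining Epx was at 0 in all 8 libraries.

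**Figure D2:**
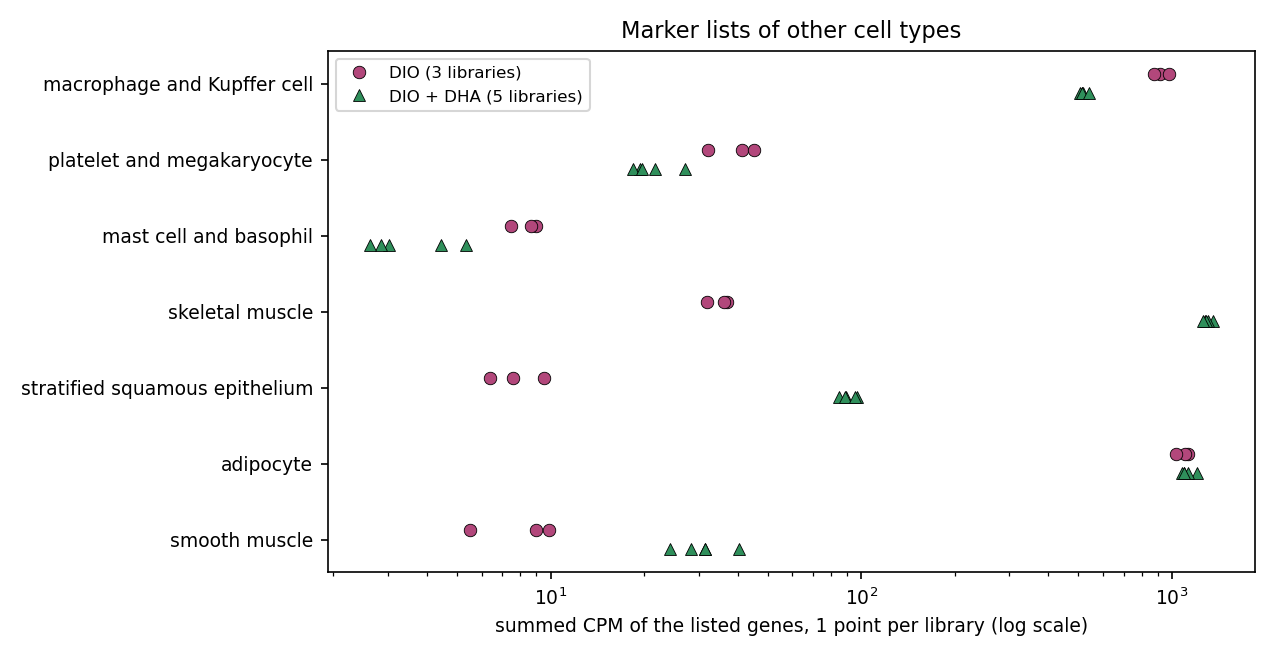
Summed CPM of 7 marker lists on a log axis, with 1 point per library, circles for DIO (n = 3) and triangles for DIO + DHA (n = 5). Skeletal muscle, squamous epithelium and smooth muscle lie higher in every DIO + DHA library, the macrophage, platelet and mast cell lists lie lower in every one, and the adipocyte list overlaps, where that overlap rests on Car3 and the platelet and mast cell separations rest on Clec1b and Hdc.

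Ptgds (chr2:25356721-25360058, minus strand) encodes the lipocalin-type prostaglandin D2 synthase, a secreted enzyme that also carries lipophilic molecules and is best known from brain, meninges, heart and fat. It had 0, 5 and 5 counts in DIO replicates 1, 4 and 5. In DIO + DHA replicates 1, 2, 4, 5 and 6 it had 28, 27, 26, 30 and 36 counts. Every DIO + DHA library was far above every DIO library, although all 5 were shallower than DIO replicates 4 and 5. Ptgds rose, with means of 0.596 ± 0.516 CPM (SD, n = 3) in DIO and 7.75 ± 1.53 CPM (SD, n = 5) in DIO + DHA and a fitted log2 difference of 3.25 (SE 0.38, 95% interval 2.49 to 4.01), which is 9.52-fold with an edgeR adjusted p of 6.7e-10. The DIO side of this ratio rests on 10 counts in all, against 147 in DIO + DHA, so its size is less certain than its direction. Within DIO + DHA the libraries varied by 19.7%, close to the 19% that counting alone would give.

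Markers of tissues other than liver moved in the same direction as Ptgds. Besides skeletal muscle and squamous epithelium, 3 of the 5 tested smooth muscle markers rose and none fell, with summed levels of 5.50 to 9.92 CPM in DIO and 24.3 to 40.5 CPM in DIO + DHA. Those that rose were Acta2, Des and Actg2, the last tested through the DIO + DHA group alone, and Myh11 and Tagln were not called. Of the 6 tested adipocyte markers, 4 rose (Adipoq, Retn, Cfd and Fabp4) and 1 fell (Plin4), with Adipoq and Retn tested through the DIO + DHA group alone. The summed adipocyte level overlapped, at 1030 to 1130 CPM and 1080 to 1200 CPM, because Car3, which was abundant in both groups at 984 to 1090 CPM, dominates it. Without Car3 the list was separate, at 38.8 to 43.3 CPM and 88.1 to 116 CPM. Adipoq alone had 3, 0 and 2 counts in the DIO libraries and 6, 20, 22, 12 and 16 counts in the DIO + DHA libraries. Scaled for depth its groups overlapped, with 1.69 CPM in DIO replicate 1 and 1.19 CPM in DIO + DHA replicate 1. Of the brain and meninges list, Slc22a6 was at 0 and only Slc6a13, which liver also expresses, was tested. The part of these tissues in the Ptgds difference was not tested.

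Hpgds (chr6:65094277-65121892, minus strand), the haematopoietic prostaglandin D2 synthase of mast cells, antigen-presenting cells and Kupffer cells, was near the limit of the depth. It had 2, 13 and 6 counts in the DIO libraries and 4, 3, 2, 3 and 6 counts in the DIO + DHA libraries. The groups overlapped, and DIO replicate 4 alone was high. The fitted log2 difference was -0.80 (SE 0.51, 95% interval -1.82 to 0.22, edgeR adjusted p = 0.348), and it was -0.23 without DIO replicate 4. The interval is wide and does not show that the 2 diets were alike in Hpgds. The difference between Ptgds and Hpgds in their response was not tested.

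In the leukotriene branch, Alox5ap (chr5:149201577-149224963, plus strand) encodes the membrane protein that presents arachidonic acid to 5-lipoxygenase. It had 3, 16 and 16 counts in the DIO libraries and 5, 7, 8, 12 and 7 counts in the DIO + DHA libraries. The mean was 2.47 ± 0.678 CPM (SD, n = 3) in DIO and 2.11 ± 0.820 CPM (SD, n = 5) in DIO + DHA, with a fitted log2 difference of -0.41 (SE 0.38, 95% interval -1.18 to 0.36, edgeR adjusted p = 0.568). The groups overlapped, and libraries of a group varied by 27.5% in DIO and 38.9% in DIO + DHA, where counting alone would give 33.7% and 36.8%. Alox5ap was therefore counted in every library while Alox5, its partner enzyme, was counted in none. The neutrophil markers, a cell type rich in both, summed to 20.3 to 25.1 CPM in DIO and 17.1 to 24.7 CPM in DIO + DHA, and none of the 4 tested was called by edgeR, DESeq2 or limma-voom, with 1 at an unadjusted edgeR p under 0.05. Of the monocyte and dendritic cell markers, 2 of the 6 tested were lower (Fcgr1 and Cx3cr1) and none higher. Cx3cr1 passed the filter through the DIO group alone. That list summed to 16.2 to 21.4 CPM in DIO and 9.28 to 17.3 CPM in DIO + DHA. Without Zbtb46 its groups were separate, at 13.2 to 18.6 CPM and 6.78 to 10.5 CPM. Most macrophage markers given above were also lower. The part of any of these cells in the Alox5ap counts was not tested. About 13.3% of the exon bases of Alox5ap overlap an antisense gene, Gm19719, and reads there were not counted.

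Lta4h (chr10:93289273-93320737, plus strand), which makes leukotriene B4 and is also a widely expressed aminopeptidase, stood at 16.9, 15.9 and 15.97 CPM in the DIO libraries. It stood at 18.05, 19.4, 16.4, 19.7 and 21.6 CPM in the DIO + DHA libraries. Only DIO + DHA replicate 4 lay within the range of the DIO group. The log2 difference was 0.25 (SE 0.15, 95% interval -0.05 to 0.55) and was not called, with an edgeR adjusted p of 0.307. The DIO libraries varied by 3.42%, less than the 13.8% that counting alone would give, so their closeness is not a measure of how little mice differ.

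The epoxide hydrolases were the most deeply counted members, and both are enzymes of hepatocytes. Ephx2 (chr14:66321823-66361949, minus strand), the soluble epoxide hydrolase, stood at 877, 882 and 842 CPM in the DIO libraries. In the DIO + DHA libraries it stood at 1219, 1187, 1146, 1175 and 1199 CPM. The lowest DIO + DHA library was well above the highest DIO library. Ephx2 rose, with means of 866.9 ± 22.1 CPM (SD, n = 3) in DIO and 1185 ± 27.6 CPM (SD, n = 5) in DIO + DHA and a log2 difference of 0.45 (SE 0.06, 95% interval 0.33 to 0.58), which is 1.37-fold (1.25 to 1.49) with an edgeR adjusted p of 6.8e-08. Libraries of 1 group differed by only 2.54% in DIO and 2.32% in DIO + DHA, where counting alone would give 1.88% and 1.5%.

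Ephx1 (chr1:180803775-180848469, minus strand), the microsomal epoxide hydrolase of xenobiotic metabolism, stood at 321, 341 and 359 CPM in DIO and at 367, 370.3, 389, 353 and 358 CPM in DIO + DHA. DIO replicate 5 lay above 2 of the DIO + DHA libraries, so the groups overlapped. The log2 difference was 0.10 (SE 0.07, 95% interval -0.03 to 0.24, edgeR adjusted p = 0.361), and the interval holds both 0 and a small increase. The ratio of Ephx2 to Ephx1 counts within a library was 2.73, 2.59 and 2.34 in DIO and 3.32, 3.21, 2.94, 3.33 and 3.35 in DIO + DHA. It is compared only between libraries and is not read as the relative level of the 2 genes. The ratio, which does not depend on the depth or scaling of a library, was lower in each DIO library than in any DIO + DHA library. It was formed after the values were seen and was not tested. Among 4187 well counted genes, the log2 CPM of Ephx2 was most like that of Cox7a1 and Cidec over the 8 libraries (Pearson r = 0.998 and 0.997), and that of Ephx1 most like Peds1 and Pglyrp2 (0.968 and 0.938). These are descriptions over libraries that share the split into 2 diets. Markers of other tissues rose in DIO + DHA too, as given above, and the part of those tissues in the Ephx2 difference was not tested. The hepatocyte markers did not move as a group with Ephx2: of the 12 genes, 3 were higher and 4 lower.

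**Figure D3:**
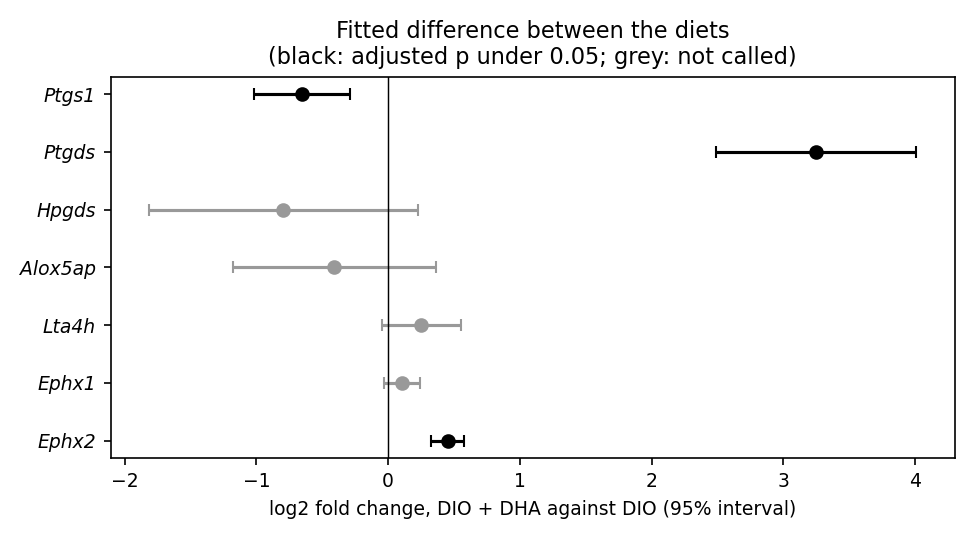
Fitted log2 fold change of the 7 tested members, DIO + DHA against DIO, with 95% intervals, black where the adjusted p was under 0.05 and grey otherwise. The intervals of Ptgds and Ephx2 lie above 0 and that of Ptgs1 below, and the interval of Ephx2 is the narrowest of these 3 and that of Ptgds the widest.

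**Figure D4:**
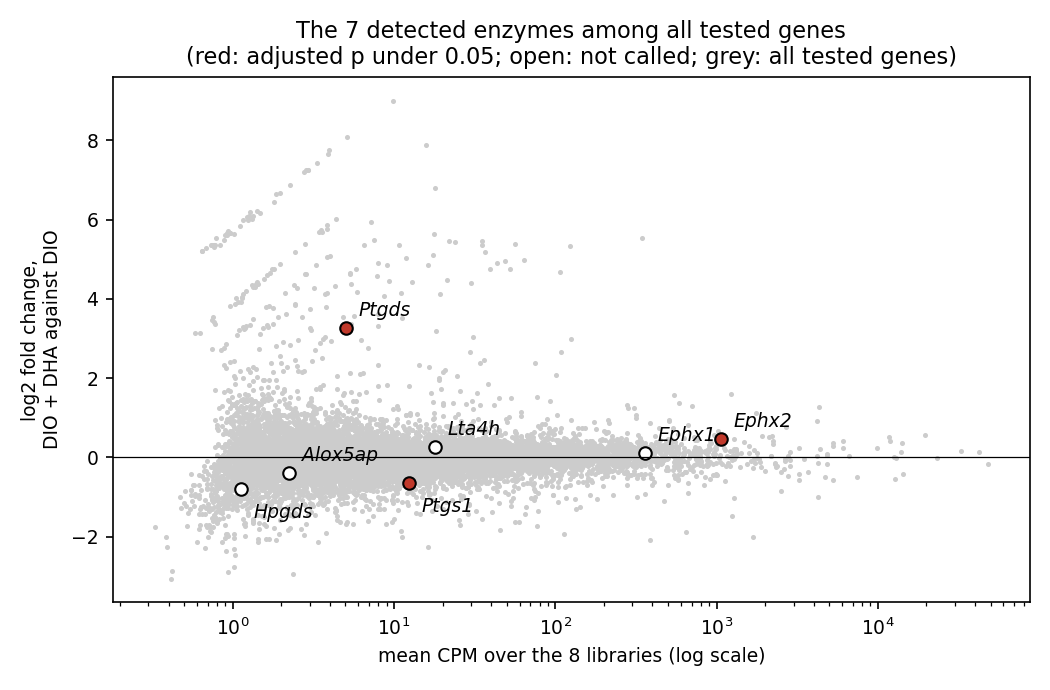
Log2 fold change against mean CPM on a log axis for the 12412 tested genes (grey) and the 7 tested members (red where called, open otherwise). Ephx1 and Ephx2 lie among the well counted genes, Hpgds and Alox5ap lie at the low end where the spread is wide, and Ptgds lies at 3.25 among other genes that were near 0 in DIO, whose slanted lines are genes with the same few DIO counts.

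The rest of the pathway was read from 10 lists of 107 other genes, of which 57 were tested, 50 fell below the filter and 22 of those were at 0 in every library. Of the 57 tested, 10 rose, 9 fell and 38 were not called, with a median log2 difference of -0.02. Over all 12412 tested genes 15.2% were called, 7.89% higher and 7.28% lower. These lists, like the members, were chosen with earlier results of these data known. Pla2g4a, Alox12, Ltc4s, Ptger2, Ptgfr, Tbxa2r and Fpr2 passed the filter on low counts through the DIO group alone, and of these only Tbxa2r was called. The lists held phospholipases, other synthases, receptors, leukotriene and breakdown enzymes and P450 enzymes.

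Upstream, 10 of the 22 phospholipases A2 and lysophospholipid hydrolases were tested, with 2 higher and 2 lower and a median of -0.07 on the log2 scale. Mgll, the monoacylglycerol lipase that frees arachidonic acid from an endocannabinoid, rose from 323.9 ± 17.4 CPM to 470.6 ± 22.99 CPM (log2 difference 0.54, edgeR adjusted p = 1.1e-08). Pla2g7, the secreted lipase that inactivates platelet-activating factor and is made by macrophages, fell from 15.8 ± 2.89 CPM to 7.24 ± 1.52 CPM (log2 difference -1.07, edgeR adjusted p = 1.7e-05). The groups did not overlap in either gene. Pla2g15, the lysosomal phospholipase A2, was lower by -0.57 on the log2 scale (edgeR adjusted p = 0.0126), and the call was lost without DIO replicate 4 (adjusted p = 0.069) and with the DESeq2 test (0.052). Plaat3, a phospholipase best known from fat cells, was higher by 0.56 with overlapping groups (edgeR adjusted p = 0.0413) and lost its call in 9 of 18 alternatives.

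Of the 8 other prostanoid synthases, 7 were tested, 2 fell and none rose. Tbxas1, the thromboxane A synthase of platelets and macrophages, was at 7.88, 4.51 and 5.68 CPM in DIO and at 2.78, 2.35, 2.85, 3.05 and 3.71 CPM in DIO + DHA. All 5 DIO + DHA libraries lay below the lowest DIO library. The log2 difference was -0.89 (edgeR adjusted p = 0.0227), and the adjusted p rose to 0.099 without DIO replicate 1, to 0.10 without DIO replicate 5, to 0.051 without DIO + DHA replicate 1 and to 0.079 with the DESeq2 test. Prxl2b, a prostaglandin F synthase, fell from 45.2 ± 0.893 CPM to 32.8 ± 4.44 CPM (log2 difference -0.44, edgeR adjusted p = 0.003). Cbr1, the carbonyl reductase that can form prostaglandin F2-alpha from E2 had 76.8 ± 0.451 CPM and 89.4 ± 5.81 CPM and was not called (edgeR adjusted p = 0.0908).

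Receptors were rarely counted. Of the 9 prostanoid receptors 3 were tested, and Tbxa2r, the thromboxane receptor, fell from 2.99 ± 1.33 CPM to 0.765 ± 0.452 CPM (log2 difference -1.74, edgeR adjusted p = 0.00822, 33 counts against 15 counts in all). It passed the filter on low counts through the DIO group alone, where it is high, so the filter favours this direction. Its adjusted p was 0.054 without DIO replicate 1. Ptgdr and Ptgdr2, the prostaglandin D2 receptors, were at 0 in every library. Of the 13 leukotriene and resolvin receptors 3 were tested, 0 were called by edgeR, DESeq2 or limma-voom and 0 had an unadjusted edgeR p under 0.05. The best counted, Cmklr1, the chemerin receptor for which resolvin E1 has also been proposed as a ligand, had 4.07 CPM and 2.77 CPM (edgeR adjusted p = 0.289). Most of the macrophage markers given above were also lower, and the part of those cells in the Tbxas1 and Tbxa2r differences was not tested.

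In the leukotriene and breakdown lists few genes moved. Of 5 tested genes of cysteinyl leukotriene synthesis and trimming, 1 fell: Rnpep, an aminopeptidase related to Lta4h, went from 26.9 ± 2.69 CPM to 18.4 ± 2.61 CPM (log2 difference -0.50, edgeR adjusted p = 0.00717), and its adjusted p was 0.069 without DIO replicate 5. Mgst3, the best counted gene there, was not called (adjusted p = 0.351). None of the 9 tested genes of prostaglandin and leukotriene breakdown and uptake was called by edgeR, DESeq2 or limma-voom, with 1 at an unadjusted edgeR p under 0.05. The best counted, Cyp4f14, which hydroxylates leukotriene B4, had 120.4 ± 3.95 CPM and 104.4 ± 9.24 CPM (adjusted p = 0.0933). Of the 5 other lipoxygenases only Alox12, the platelet form, was tested, at 0.844 CPM and 0.988 CPM (adjusted p = 0.957). Ephx3 and Ephx4, the remaining epoxide hydrolases, were below the filter.

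The P450 genes listed as epoxygenases, the class of enzyme that forms the epoxides on which Ephx2 acts, moved in both directions. Of 22 epoxygenases 15 were tested, 5 rose and 3 fell, and their summed level overlapped between the groups, at 2150 to 2300 CPM in DIO and 2090 to 2290 CPM in DIO + DHA. Cyp2c40 rose from 77.3 ± 1.33 CPM to 128.2 ± 5.28 CPM (log2 difference 0.73, edgeR adjusted p = 3.7e-10) and Cyp2c54 from 10.3 ± 0.498 CPM to 22.04 ± 4.26 CPM (1.11, adjusted p = 1.1e-06). Cyp2c70, which in mice acts mainly on bile acids, fell from 233.5 ± 4.22 CPM to 120.8 ± 6.69 CPM (log2 difference -0.95, edgeR adjusted p = 6.0e-16), and Cyp2c50 from 199.9 ± 10.9 CPM to 132.7 ± 8.53 CPM (-0.60, adjusted p = 8.1e-09). Cyp2c29, the best counted, was not called (adjusted p = 0.226). Many Cyp2c genes are close copies of their neighbours, counted from unique alignments, so the share of reads given to single genes is uncertain.

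Of the 8 Cyp4a omega-hydroxylases, which oxidize the far end of arachidonic acid and other fatty acids, 4 were tested, 3 rose and none fell. Their summed level was 4400 to 4840 CPM in DIO and 7890 to 8750 CPM in DIO + DHA. Cyp4a10 rose by 0.92, Cyp4a14 by 0.78 and Cyp4a31 by 1.62 on the log2 scale, with edgeR adjusted p-values of 5.1e-18, 1.1e-15 and 8.7e-15. As in Ephx2, the groups did not overlap in any of the 3. Cyp4a genes are close copies of each other too, with the same limit on single genes.

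**Figure D5:**
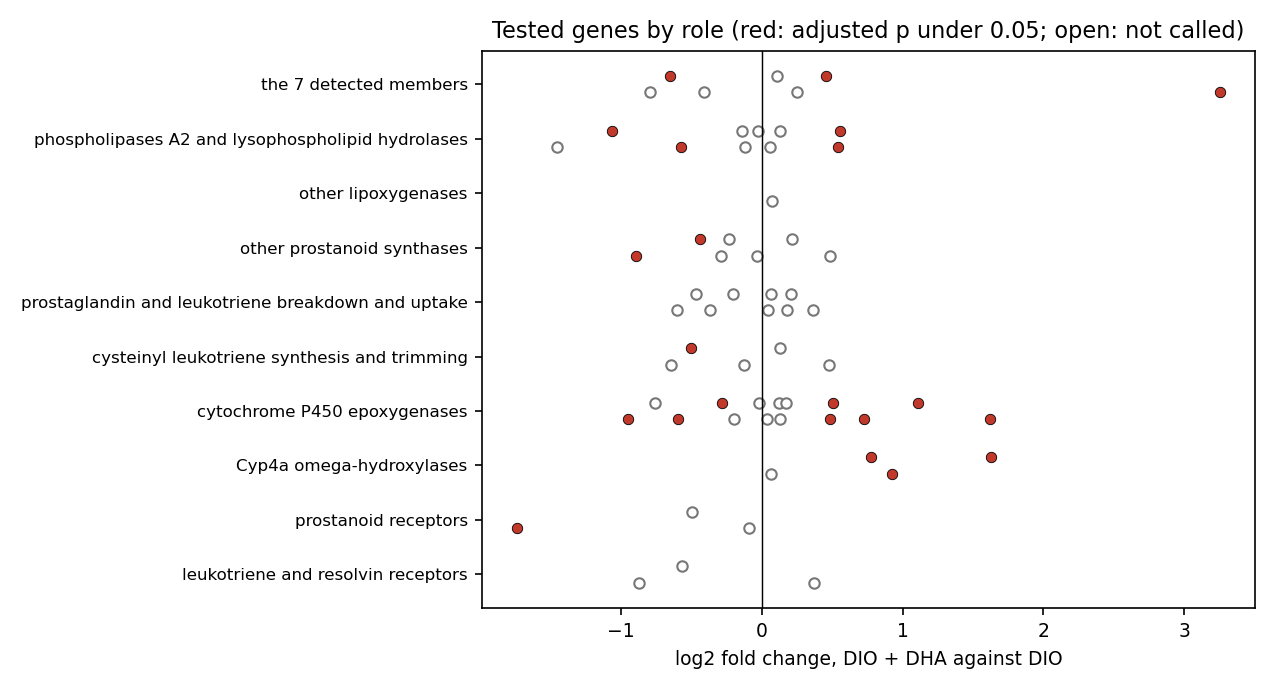
Log2 fold change, DIO + DHA against DIO, of the tested genes of each list, with 1 point per gene, red where the adjusted p was under 0.05 and open otherwise; a list with no tested gene is not drawn. The Cyp4a row has 3 of its 4 points called and above 0, the epoxygenase row has called points on both sides of 0, and the single called receptor, Tbxa2r, lies at -1.74.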

How the data were processed

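Liver poly(A) RNA of 8 mice was sequenced as 3′-enriched cDNA, made with primers that carry a sample barcode and a molecular identifier. Per the labels and the study's methods, the authors checked reads with FastQC 0.11.8, trimmed them, aligned them to GRCm39 with STAR 2.7.9a and ran featureCounts 1.6.0 over the exons annotated in GENCODE vM33. The files they deposited hold raw read counts for each gene, and their headers show a command with no option for strand, multi-mapped reads or overlapping genes. A collapse of reads by molecular identifier is not given in the sources used here. Because reads come mostly from 3′ ends, isoforms were not separated and counts were not divided by gene length, and sums over lists and ratios of genes are read only between libraries.

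The 8 tables were joined on the gene identifier. Names came from GENCODE release 39, which held 56323 of the 56884 identifiers, and coordinates from the deposited tables. Groups were taken from the sample titles. As in the study, a gene was left out when over 50% of the libraries in both groups had fewer than 5 counts. The remaining 12412 entered edgeR 4.0.16, with TMM scaling and its quasi-likelihood F test (R 4.3.3, robust fit, common biological coefficient of variation 0.0801) and Benjamini-Hochberg adjustment over all of them, at an adjusted p under 0.05. CPM, and the limits that 0 counts allow, were computed from the TMM-scaled library sizes.

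Alternatives were DESeq2 1.42.0 (size factors, Wald test), limma-voom with limma 3.58.1 (adjusted p, and log-odds B above 0 as in the study), library size alone, TMM without strongly changed and other-tissue genes, other filters, a replicate block and leaving out each library. Marker sums without the best counted gene of a list were added after seeing the data. Named genes were all members and, from each list, the called genes (or the 4 with the smallest p where there were more) and the best counted tested gene. The members and lists were chosen with earlier results of these data known. Motifs were searched as exact letters in the RefSeq promoter table.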

Additional observations from a re-analysis of the deposited data

Results flagged for a closer look

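Of 28 groups of 5 libraries checked for a single distant value, 1 was set apart. Cbr1, the carbonyl reductase, stood at 79.2 CPM in DIO + DHA replicate 5, and the other 4 libraries of that group stood at 90.9 to 93.5 CPM. Its gap to the nearest library was 0.816 of the range of the group. About 1 in 20 groups is set apart in this way by chance. Without that library the Cbr1 difference was 0.25 on the log2 scale and was called (edgeR adjusted p = 0.042), whereas with it the difference was 0.21 (adjusted p = 0.0908).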

How the results depend on the processing

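Ephx2 kept its call under 18 of 18 alternatives, at 0.43 to 0.47 on the log2 scale, and Ptgds under 17 of 17, at 3.04 to 3.45. Ptgs1 kept its call in 16 of 18, at -0.79 to -0.53, and lost it without DIO replicate 5 and under limma-voom's log-odds criterion (-0.67, with an adjusted p of 0.0081). Lta4h, Ephx1, Hpgds and Alox5ap were called under none. With at least 10 counts required in every library, 1 member was higher rather than 2 and 6 members were below the filter rather than 3, because Ptgds, Hpgds and Alox5ap were not tested there. Under the log-odds criterion 0 members were lower rather than 1 and 3 other pathway genes rather than 9, and 860 of all genes were called rather than 1883. Leaving out each library in turn gave 0 to 1 members lower. Alox12, near 0 in either direction, ran from -0.093 to 0.271 over the same fits and was negative in 3 of them. Among the other pathway genes, Prxl2b lost its call only under the log-odds criterion. Pla2g15 lost its call under the replicate block too (adjusted p = 0.21), and Cyp4f14 gained one with library size alone (0.05), under the replicate block (0.023) and without DIO + DHA replicate 6 (0.031).

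Replicate numbers 1, 4 and 5 occur in both groups, but same-numbered libraries did not deviate together (correlations of -0.03, -0.07 and -0.05 over 4188 genes), and none correlated best with its own number. With the replicate block 1538 genes were called, and the members called were 2 higher and 1 lower as without it (Ephx2 0.44, Ptgds 3.31, Ptgs1 -0.73). Depth limits Alox5, Alox15, Ptgs2, Hpgds and Alox5ap, whose levels rest on a few reads per library or none.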
